A study of Sorghum bicolor with 63 samples.

Results

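Lateral roots were compared with the primary root of sorghum (Sorghum bicolor, genotype BTx623) plants that are labelled as the nitrogen recovery control at 48 h. The members are the 3 lateral root and 3 primary root libraries with that label, 6 of the 63 libraries in the series, joined by gene ID. All plants were the inbred line BTx623 and grew in nutrient solution until the fifth leaf stage; a library holds root tissue pooled from several plants. In the rest of the series, nitrate was withdrawn for 0.5, 3 or 24 h and then returned, and root samples were taken before this (0 h), at each of these times, and 24.5 and 48 h after the start. The labels call the control group NRC and say no more about its nutrient solution, and the methods do not describe it, so whether these plants ever lacked nitrate is not given in the sources used here. Nothing in the labels says whether the lateral and primary roots of a replicate number came from the same plants, and p-values measure only the spread between these libraries.

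The primary root is the root that emerges from the seed, and lateral roots form later as branches from inner tissue of a parent root. Both take up nitrate and ammonium through membrane transporters. Nitrate is reduced to nitrite by nitrate reductase (NR) and to ammonium by nitrite reductase (NIR), and glutamine synthetase (GS) and glutamate synthase (GOGAT) then build ammonium into amino acids. In a bulk library, fewer cells of a type and less RNA per cell cannot be told apart.

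Expression was given as TPM, a level that is corrected for transcript length and adds up to the same total in each library. Of 35567 gene IDs, 21399 reached 1 TPM in 3 or more of the 6 libraries and were tested on log2(TPM + 1) with limma. Genes were called differentially expressed (DEGs) where the p adjusted by Benjamini-Hochberg was below 0.05 and the log2 fold change was beyond 1 in either direction. All fold changes below are lateral minus primary root in log2(TPM + 1), a scale that shrinks the change of genes with low TPM. The depth of the libraries is unknown, because TPM keep no read counts. Between 20870 and 21330 genes reached a TPM of 1 in a library. Across genes, libraries correlated with others of the same root at a mean of 0.981 in lateral and 0.990 in primary root, against 0.976 between the roots. The summed TPM of 11 leaf marker genes (LHCB5, PPDK2 and 9 genes described as photosystem or chlorophyll-binding proteins) was 326, 90.3 and 103 in lateral root replicates 1 to 3 and 104, 204 and 113 in primary root, against 21841 to 53179 in the leaf libraries of the same group. Lateral root replicate 1 and primary root replicate 2 were thus highest in their groups. None of the 11 markers was a DEG in limma (1 had an unadjusted p under 0.05), and the part of leaf RNA in the results below was not tested beyond leaving those libraries out. No marker of a root cell type could be checked, since the files carry no gene descriptions.

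Most DEGs of the 48 h control were higher in primary root. Of the 21399 genes tested, 823 were DEGs (3.85%); 629 (2.94%) were higher in primary root and 194 (0.907%) in lateral root. With the adjusted p alone, 3226 genes (15.1%) passed, 1682 of them higher in lateral and 1544 in primary root, so the excess in primary root was seen only among the larger differences. The median log2 fold change was 1.21 for the DEGs higher in lateral root, -1.26 for those higher in primary root and 0.05 for all genes tested. An absolute log2 fold change over 2 was reached by 11 DEGs higher in lateral and 24 higher in primary root. The 6 libraries did not overlap between the roots for 821 of the 823 DEGs, and for 40.2% of all genes tested.

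**Figure D1:**
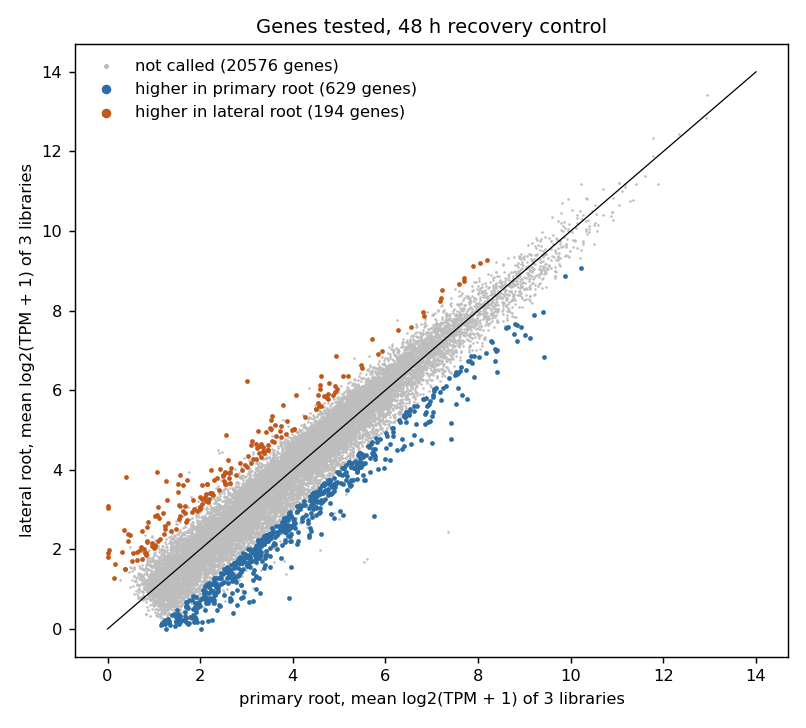
Mean log2(TPM + 1) of the 3 lateral root libraries (y axis) against that of the 3 primary root libraries (x axis), a point for each of the 21399 genes tested; the line marks equal means. The 629 DEGs higher in primary root lie below the line and the 194 higher in lateral root above it; the genes of highest expression are not among them.

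The number of DEGs depended on single libraries. Without lateral root replicate 1 it was 1239, and without lateral root replicate 2 or 3 it was 266 and 181. Without primary root replicate 1 it was 80, without replicate 2 it was 883 and without replicate 3 it was 183. Leaving out lateral root replicate 1 and primary root replicate 2 together, which have the highest leaf marker sums, gave 1390 DEGs, 491 higher in lateral and 899 higher in primary root. In each of these 7 fits more DEGs were higher in primary than in lateral root. Among the 823 DEGs, 55 were called in each of the 6 fits without a single library, 13 of them higher in lateral and 42 in primary root. Primary root replicate 2 was the highest primary root library for 135 of the 194 DEGs higher in lateral root.

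**Figure D2:**
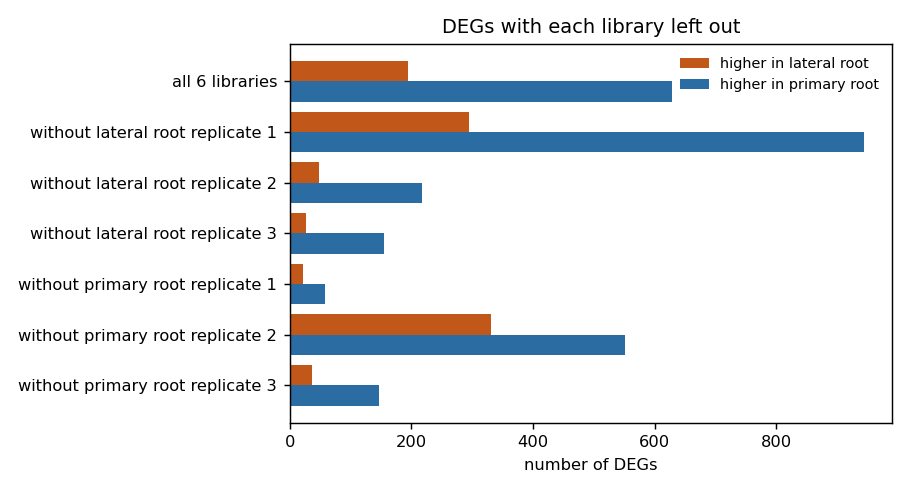
Number of DEGs (x axis) higher in each root, with all 6 libraries and with each library left out in turn. The counts run from 80 without primary root replicate 1 to 1239 without lateral root replicate 1, and the bar for primary root is the longer one in each pair.

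The largest differences toward lateral root were in genes with low levels in primary root. Their identity is given by ID alone where the files and the study's tables carry no name. ENSRNA049483594, a non-coding RNA ID, had 11.2, 15.7 and 12.5 TPM in lateral root and 0.340, 0.295 and 0.339 TPM in primary root (log2 fold change 3.40, SE 0.20, adjusted p = 0.00259 in limma). SORBI_3003G172701 had between 12.5 and 15.7 TPM in the lateral root libraries and 1.16, 0.957 and 1.17 TPM in primary root (log2 fold change 2.87, SE 0.18, adjusted p = 0.00259). For both genes, each lateral root library was far above each primary root library. The call of SORBI_3003G172701 held with any single library left out. That of ENSRNA049483594 held in the 3 fits without a primary root library. In the fits without a lateral root library it was under the filter and was not tested. SORBI_3009G196400 had 75.3, 93.8 and 57.8 TPM in lateral root and 2.00, 18.2 and 8.18 TPM in primary root (3.22, SE 0.58, adjusted p = 0.0193). Its primary root libraries differed among themselves by more than those of the other genes just named, and its call was lost without lateral root replicate 2, lateral root replicate 3 or primary root replicate 3. Among the 15 largest differences toward lateral root, log2 fold changes ran from 1.94 to 3.40. SORBI_3004G087000, described as a chloroplastic ATP synthase beta subunit, had 9.12, 4.7 and 9.16 TPM in lateral root, 1.12, 1.44 and 0.864 TPM in primary root and a mean of 8.44 TPM in leaf (1.98, SE 0.27, adjusted p = 0.0138). Its call was lost without 2 of the 6 libraries.

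The largest differences toward primary root included genes of high expression and genes with low levels in lateral root. Among the latter, SORBI_3010G153532 had means of 0.410 TPM in lateral and 5.57 TPM in primary root. SORBI_3002G349300 had 162, 82.5 and 110 TPM in lateral root and 945, 649 and 526 TPM in primary root, a ratio of the means of 5.99 (log2 fold change -2.58, SE 0.28, adjusted p = 0.0107). SORBI_3006G011900 had 4.72, 7.11 and 6.95 TPM in lateral root and 96.8, 28.2 and 53.0 TPM in primary root (-2.90, SE 0.39, adjusted p = 0.0137). Both genes were called with any single library left out, although the primary root levels of the latter spread widely. SORBI_3010G031100 had the lowest fold change, with 17.9, 28.2 and 5.26 TPM in primary root and 1.001, 0.198 and 1.11 TPM in lateral root (-3.14, SE 0.53, adjusted p = 0.0169), and it was not called in 3 of the 6 fits without a library. The 15 largest differences toward primary root ran from -3.14 to -2.14.

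Some DEGs lay beside each other in the genome. Gene IDs number the genes along each chromosome, so neighbors were taken as consecutive tested IDs. Of the 624 DEGs higher in primary root that carry a chromosome ID, 80 (12.8%) had a neighbor called in the same direction, against 5.73% of all such genes. Of the 164 higher in lateral root, 14 (8.54%) had one, against 1.52%. Neighboring genes can be near-identical copies whose reads are split by the quantification, and no test of this clustering was made. The genes of these runs were picked after their values were seen. On chromosome 8, SORBI_3008G135300, SORBI_3008G135500 and SORBI_3008G135600 were all higher in primary root. SORBI_3008G135500 had 162, 184 and 153 TPM in lateral root and 490, 412 and 676 TPM in primary root (-1.63, SE 0.18, adjusted p = 0.0112). The other two had log2 fold changes of -1.91 and -1.55, and the 3 genes were called with any single library left out. On chromosome 1, SORBI_3001G232000 had 137, 160 and 175 TPM in lateral root and 623, 427 and 633 TPM in primary root (-1.81, SE 0.17, adjusted p = 0.00889), beside SORBI_3001G231900 and SORBI_3001G232200 at -1.39 and -2.21, whose calls were lost in 1 and 4 of the 6 fits without a library. The 1 run toward lateral root, of 4 genes from SORBI_3003G168700 to SORBI_3003G169100 on chromosome 3, had fold changes of 1.68 to 2.13 and mean leaf levels of up to 67.2 TPM, above both roots. SORBI_3003G168700 had 11.5 ± 0.527 TPM (SD, n = 3) in lateral root and 1.37, 3.61 and 1.14 TPM in primary root.

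The genes highest in expression were not among the DEGs. The 5 genes with the highest mean TPM in lateral root and the 5 in primary root share 4 genes, and none of the 6 genes was a DEG (adjusted p from 0.063 to 0.828 in limma). The top gene in both, SORBI_3005G228700, had 13221, 10013 and 9948 TPM in lateral root and 7076, 9309 and 7266 TPM in primary root (0.49, SE 0.20, adjusted p = 0.129). Its libraries did not overlap between the roots. Nor did those of SORBI_3004G159733 (0.56, SE 0.17, adjusted p = 0.063) and SORBI_3005G096101 (-0.69, SE 0.22, adjusted p = 0.0707). The libraries of the rest overlapped. Of all genes tested, 40.2% did not overlap.

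No gene of nitrogen uptake passed both thresholds at the 48 h control. Of 15 transporter genes in the network list of the study, 13 were tested, and none was called in limma; 4 had an unadjusted p under 0.05, and 3 an adjusted one, beside 34.9% and 15.1% of all genes tested. NPF2.3 (SORBI_3001G133900), of the family of nitrate and peptide transporters, had 180, 159 and 172 TPM in lateral root and 261, 244 and 260 TPM in primary root (-0.58, SE 0.09, adjusted p = 0.0152). NPF4.7 (SORBI_3005G090600) had 120, 91.6 and 92.4 TPM in lateral root and 56.1, 78.6 and 48.6 TPM in primary root (0.74, SE 0.19, adjusted p = 0.0395). These libraries did not overlap for either gene, and the differences had opposite directions. The third, AMF1-2 (SORBI_3006G153900), had a fold change of 0.46 (adjusted p = 0.0465). The nitrate transporter NRT1.1 (SORBI_3007G044300) had 178, 129 and 115 TPM in lateral and 196, 183 and 147 TPM in primary root, which overlapped. For NRT2.1 (SORBI_3004G009500), a high-affinity nitrate transporter, levels were low, with 8.67, 3.23 and 4.83 TPM in lateral and 1.31, 3.72 and 1.04 TPM in primary root (1.14, SE 0.40, adjusted p = 0.0896), and it was called in 4 of 16 alternatives. Its partner protein NAR2.1 (SORBI_3004G202400) had 133, 55.7 and 49.1 TPM in lateral and 41.5, 54.8 and 55.9 TPM in primary root, so that only lateral root replicate 1 stood apart. The ammonium transporter AMT1.3 (SORBI_3004G217800) showed the same library apart, at 224 TPM against 75.9 and 81.5 TPM in the other lateral root libraries and 57.5 to 87.3 TPM in primary root. AMT1.1a, AMT2.3, AMT2.4, NRT1.3, NPF3.6 and NPF4.9 had adjusted p values from 0.15 to 0.693. NRT2.5 and a second NRT2.1 gene (SORBI_3004G009400) stayed under 1 TPM in all 6 libraries and were not tested.

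Of the 14 nitrate assimilation genes, 11 were tested and 1 was a DEG (9.09%, beside 3.85% of all genes tested). In limma 7 of the 11 (63.6%) had an unadjusted p under 0.05 and 2 (18.2%) an adjusted one. Over all genes tested these shares were 34.9% and 15.1%. GS1-1 (SORBI_3001G451500), a cytosolic glutamine synthetase, had 847, 426 and 464 TPM in lateral root and 188, 268 and 267 TPM in primary root (log2 fold change 1.21, SE 0.27, adjusted p = 0.0277). All lateral root libraries were above all primary root libraries, and leaf had a mean of 26.9 TPM. Its fold change ran from 0.90 to 1.40 with single libraries left out, and it was called only without primary root replicate 2 among those 6 fits. GS1-3 (SORBI_3004G247000), of the same family, had 593, 527 and 561 TPM in lateral and 618, 659 and 754 TPM in primary root (-0.27, SE 0.11, adjusted p = 0.129). GOGAT1 (SORBI_3002G402700) had 230, 249 and 248 TPM in lateral and 163, 170 and 147 TPM in primary root (0.60, SE 0.09, adjusted p = 0.0156), a difference under the fold change threshold. At the 48 h control, the tested genes of nitrate and nitrite reduction had higher means in primary root without passing the test. This order was not kept through the other times, as given further below. NR1 (SORBI_3007G153900) had a fold change of -0.49 (adjusted p = 0.13), NR2 (SORBI_3004G312500) of -0.84 (adjusted p = 0.0774, called in 2 of 17 alternatives) and NIR1 (SORBI_3004G309300) of -0.21 (adjusted p = 0.314). The root ferredoxin-NADP reductase RFNR (SORBI_3001G067100) had a fold change of 0.29 (adjusted p = 0.0687). UPM2, a gene of siroheme synthesis, and 3 genes named GOGAT2 had adjusted p values from 0.12 to 0.783. NR3 and GOGAT4 were under the filter, and GOGAT3 is listed at 0 in all 6 libraries. The median fold change was 0.27 for the transporters and -0.21 for the assimilation genes, beside 0.05 for all genes tested.

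**Figure D3:**
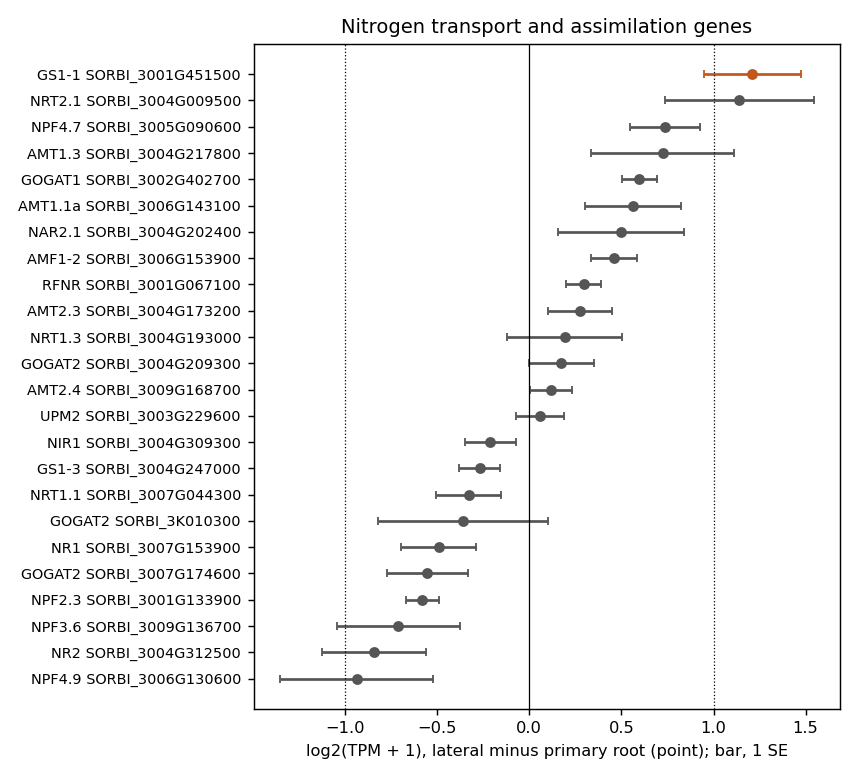
Difference in log2(TPM + 1) between lateral and primary root (x axis, point with 1 SE) for the 24 tested genes of nitrogen transport and assimilation; dotted lines mark the fold change threshold of 1. GS1-1, in color, is the DEG; the points run from -0.94 for NPF4.9 to 1.21 for GS1-1.

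Among the other pathway genes, 1 passed. AspAT (SORBI_3006G243200), an aspartate aminotransferase, had 14.6, 16.3 and 15.4 TPM in lateral root and 35.1, 36.0 and 56.6 TPM in primary root (-1.38, SE 0.19, adjusted p = 0.0138), and its call was lost without lateral root replicate 3. The asparagine synthetase ASN3 (SORBI_3001G406800) had 1858, 1634 and 1493 TPM in lateral and 842, 1098 and 777 TPM in primary root (0.88, SE 0.16, adjusted p = 0.0191), without overlap but under the fold change threshold, which it passed in 2 of 17 alternatives. Glutamate dehydrogenase GDH2 (SORBI_3006G165400) had 152, 321 and 317 TPM in lateral and 89.9, 152 and 120 TPM in primary root (1.07, SE 0.31, adjusted p = 0.0519), and was called in 5 of 17 alternatives. None of the 5 carbon metabolism genes and none of the 8 hormone genes was called in limma. With the adjusted p alone, 1 of the 5 (PEPC6) and 0 of the 8 passed, and 1 and 3 had an unadjusted p under 0.05. Over all genes tested, 15.1% passed with the adjusted p alone and 34.9% had an unadjusted p under 0.05.

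Of all 319 network genes, 285 were tested and 10 were DEGs (3.51%, beside 3.85% of all genes tested), 6 of them higher in lateral and 4 higher in primary root. The network TFs gave 8 of these, of 228 tested. Both MADS-box TFs that were called were higher in lateral root, from 5 tested. MADS4 (SORBI_3001G086500) had 12.0, 9.98 and 7.97 TPM in lateral root and 1.16, 3.50 and 1.45 TPM in primary root (1.92, SE 0.30, adjusted p = 0.0156). MADS68 (SORBI_3001G478400) had 83.0, 102 and 96.9 TPM in lateral root and 36.8, 64.4 and 35.8 TPM in primary root (1.07, SE 0.22, adjusted p = 0.0246). Of 28 bZIP TFs tested, 2 were called, both higher in lateral root. bZIP15 (SORBI_3010G269000) had 65.8, 51.2 and 49.2 TPM in lateral and 25.2, 33.9 and 20.2 TPM in primary root (1.06, SE 0.20, adjusted p = 0.0203), and bZIP24 (SORBI_3001G396400) had a mean of 3.63 against 0.921 TPM (1.34, SE 0.34). WRKY104 (SORBI_3002G202800) was the 1 called of 13 WRKY TFs, with 4.06, 2.74 and 2.68 TPM in lateral and 1.23, 1.19 and 0.674 TPM in primary root (1.03, SE 0.24, adjusted p = 0.0312). The TFs higher in primary root were GATA13 (SORBI_3003G293100, -1.09, SE 0.21), EREB80 (SORBI_3003G243500, -1.28, SE 0.34) and HB130 (SORBI_3001G386600, -1.02, SE 0.23), of the GATA, ethylene-responsive element binding and homeobox families. GATA13 had 11.2, 8.37 and 8.57 TPM in lateral and 22.4, 15.8 and 25.9 TPM in primary root. None of the 8 TFs was called in all fits without a library, and WRKY104 and HB130 were called in none of them. No member was called among 27 NAC, 24 MYB, 11 bHLH or 9 ARF and IAA TFs, of which 12, 3, 5 and 5 had an unadjusted p under 0.05 in limma, and 2, 2, 0 and 1 an adjusted one, again beside 34.9% and 15.1% of all genes tested.

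The study's tables give a description for 348 genes, some of them network genes, and 290 were tested. DEGs numbered 16 (5.52%, beside 3.85% of all genes tested), 9 higher in lateral root (beside 0.907%) and 7 higher in primary root (beside 2.94%). WRKY104 is also among the 10 network DEGs. Those named here were picked after their values were seen. SORBI_3002G202700, a WRKY TF whose ID is next to that of WRKY104, had 64.1, 57.9 and 51.3 TPM in lateral and 24.1, 19.7 and 23.4 TPM in primary root (1.33, SE 0.13, adjusted p = 0.00954). SORBI_3001G307700, described as a divalent ion symporter, had 40.1, 27.2 and 29.6 TPM in lateral and 9.05, 12.8 and 9.46 TPM in primary root (1.54, SE 0.19, adjusted p = 0.0132). Both were called with any single library left out, and their roots were well apart. The photoreceptor phytochrome A (SORBI_3001G111500) had 207, 368 and 367 TPM in lateral and 117, 182 and 141 TPM in primary root (1.07, SE 0.25, adjusted p = 0.0315). DIN6 (SORBI_3005G003200), the name of an Arabidopsis asparagine synthetase, had 24.9, 28.1 and 31.5 TPM in lateral and 8.33, 16.3 and 11.2 TPM in primary root (1.21, SE 0.23, adjusted p = 0.0203). Phytochrome A and DIN6 each lost their call in 4 of the 6 fits without a library, and DIN6 was called in the opposite direction at 3 h (-2.06, adjusted p = 0.044). Toward primary root, the ethylene-responsive TF ERF071 (SORBI_3002G415600) had 2.25 to 2.51 TPM in the lateral root libraries and 9.01, 8.24 and 8.67 TPM in primary root (-1.50, SE 0.16, adjusted p = 0.0112). A second ethylene-responsive TF, RAP2-3 (SORBI_3009G111200), had a fold change of -1.67 (SE 0.35, adjusted p = 0.0257, call lost in 3 of the 6 fits), and the aspartyl protease AED3 (SORBI_3001G478100) of -1.51 (SE 0.19, adjusted p = 0.0132).

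**Figure D4:**
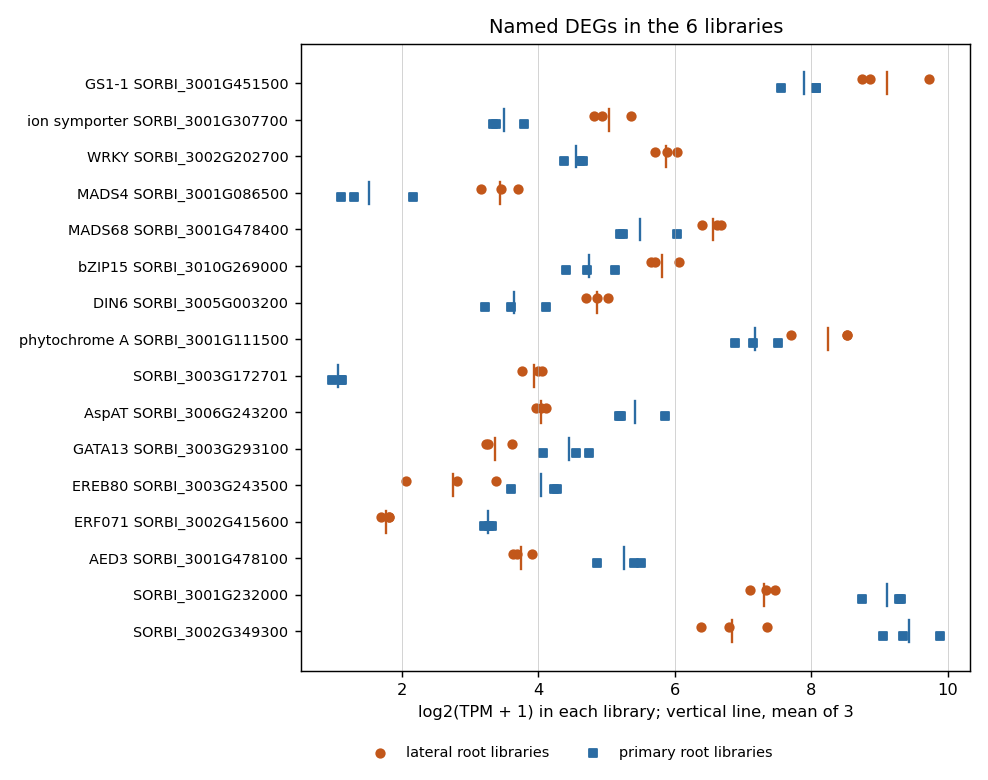
log2(TPM + 1) (x axis) of 16 named DEGs in each of the 6 libraries, with the mean of 3 as a vertical line. Circles and squares do not overlap for any gene; the 9 upper genes are higher in lateral root and the 7 lower ones in primary root.

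Non-coding RNA IDs (ENSRNA) made up 14.4% of the DEGs higher in lateral root and 0.855% of all genes tested. The filter can be met through 1 root alone, so the counts here depend in part on it. ENSRNA049483594, ENSRNA049485442, ENSRNA049485454 and ENSRNA049485445 were under 1 TPM in each primary root library and entered through lateral root only. The same held for ENSRNA049485443, ENSRNA049485452, ENSRNA049483600, ENSRNA049485582 and ENSRNA049484566. Of the IDs called higher in primary root, all but ENSRNA049485379 entered through primary root only. Of 183 ENSRNA IDs tested, 28 (15.3%) were higher in lateral root, beside 0.782% of the other genes, and 5 were higher in primary root. Their summed level was 2033, 2884 and 3011 TPM in lateral and 1869, 1889 and 1565 TPM in primary root, so all lateral root libraries were above all primary root libraries. Such RNAs are often near-identical copies, between which reads cannot be assigned with certainty. Libraries were made with poly(A) selection, and whether the level of such RNA differs with the preparation of a library was not tested. At other time points the summed level had no fixed order. At 0.5 h it was 1748 to 2224 TPM in lateral and 2302 to 2483 TPM in primary root. Of the 28, 24 were tested at 48 h recovery, where 16 were again higher in lateral root, and at 0.5 h 7 of 18 were.

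The DEGs were followed into the other root samples of the series, which share no library with the control. The 629 genes higher in primary root mostly kept their direction. At 0.5, 3 and 24 h, 98.0%, 98.8% and 98.7% of those tested were higher in primary root, and 58.0%, 50.4% and 56.0% were called so, beside 4.44%, 5.31% and 4.64% of all genes tested. At 48 h recovery, 606 of 617 were higher in primary root and 269 were called, beside 2.11% of all genes tested. Of the 629, 539 were higher in primary root at all 6 other times. Of the 194 genes higher in lateral root, 158 of 172 tested kept their direction at 0.5 h and 115 of 173 at 3 h. At 24 h 149 of 168 did so, and at 48 h recovery 163 of 182. Of the 194, 59 were higher in lateral root at all 6 times. In this count and in the 539, a gene not tested at some time is counted as not keeping its direction. Over all genes tested, 53.8%, 48.6%, 57.1% and 51.6% were higher in lateral root at 0.5, 3 and 24 h and 48 h recovery. At 24.5 h this share was 45.6%, and at 0 h 35.3%, or 50.1% without lateral root 0 h replicate 1. At 0 h, 112 of 177 kept their direction toward lateral root, and 145 of 171 without that library. Toward primary root these were 599 of 609 and 603 of 608. The counts over all 6 times use the 0 h fit with that library. Called again toward lateral root were 71 of the 172 at 0.5 h, beside 2.05% of all genes tested, 31 of 173 at 3 h, beside 0.828%, 35 of 168 at 24 h, beside 0.624%, and 91 of 182 at 48 h recovery, beside 2.59%. Called toward primary root instead were 7 of them at 0.5 h, 2 at 3 h and 3 at 24 h. The difference in persistence between the 2 groups was not tested. At 0 h no gene was called in limma (3181 genes at an unadjusted p under 0.05), with lateral root 0 h replicate 1 lying apart from its group; without that library 1233 genes were. At 24.5 h, 125 genes were called (0.568%), and 412 without primary root replicate 3; 3 of 179 members were called toward lateral root, beside 0.0455%, and 59 of 615 toward primary root, beside 0.523%. In all, 360 DEGs were shared with 48 h recovery in the same direction, which is 43.7% of the 823 and 35.4% of the 1017 DEGs found there (4.7% of the genes tested).

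SORBI_3002G349300 illustrates the persistent genes. Its fold change took the values -2.03, -2.52, -2.24, -2.32 and -2.28 from 0.5 h through to 48 h recovery, and it was called at each of these 5 times. MADS4 was called toward lateral root at 0.5, 3 and 24 h and at 48 h recovery, with fold changes of 1.67, 2.19, 1.90 and 2.03. GS1-1 was called at 0.5 h (1.73), 3 h (1.43) and 48 h recovery (2.23), and was at 0.76 at 24 h (adjusted p = 0.094). The WRKY gene SORBI_3002G202700 was called at 0.5 h (1.43) and was at -0.09 at 48 h recovery (adjusted p = 0.74). SORBI_3009G196400 was called in the opposite direction at 3 h (-2.68, adjusted p = 0.018). Some transporters that were not DEGs at the control were called toward lateral root at other times. NRT2.1 (SORBI_3004G009500) was called at 3 h (1.54), 24 h (1.03) and 48 h recovery (2.49). AMT1.3 (1.88), AMT1.1a (1.81) and NAR2.1 (1.23) were called at 48 h recovery. Transporters lower in lateral root there, such as NPF2.3 (-0.54), were not called. The nitrate reductase gene NR2, lower in lateral root at the control, was called toward lateral root at 3 h (1.098, adjusted p = 0.0326 in limma). It was higher in primary root at 2 of the 6 other times. NR1 was so at 3 of the 6 and NIR1 at 2.

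**Figure D5:**
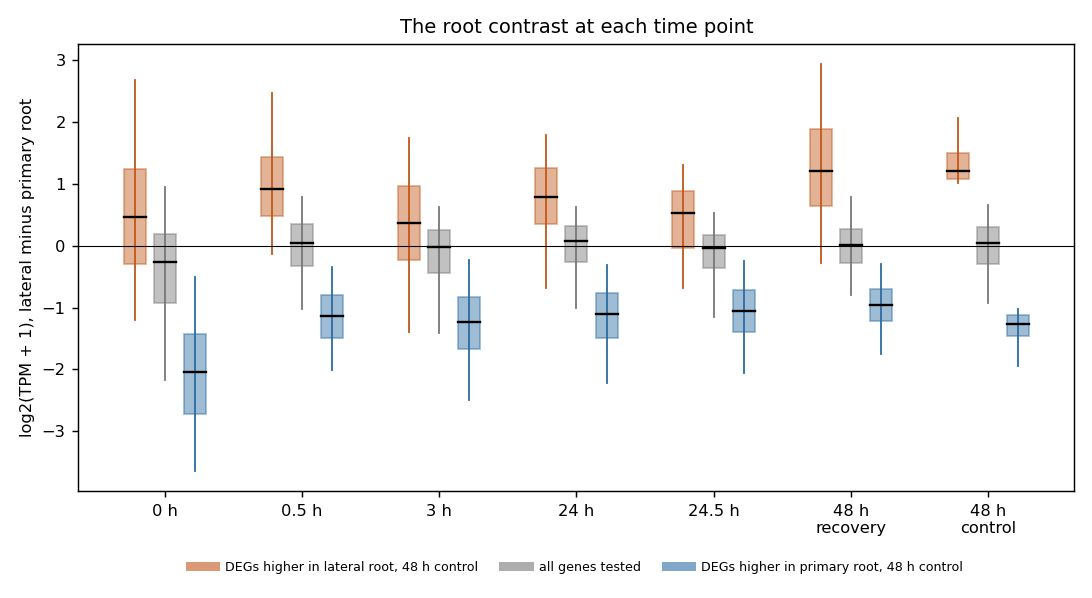
Difference in log2(TPM + 1) between lateral and primary root (y axis) at each time point, for the DEGs of the 48 h control and all genes tested; boxes are quartiles, black lines medians and thin lines the central 90% of genes. The DEGs were chosen at the 48 h control, where their boxes lie beyond 1 and -1 by that choice; at 48 h recovery their medians were 1.20 and -0.97.

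Whether the contrast between the roots itself differed between the 48 h control and 48 h recovery was tested as an interaction over 12 libraries. None of 22382 genes was called in limma (smallest adjusted p = 0.0527), and 2256 genes (10.1%) had an unadjusted p under 0.05. The gene nearest the threshold, WRKY15 (SORBI_3008G060300), was picked after its values were seen. It had 186, 199 and 180 TPM in lateral and 128, 127 and 125 TPM in primary root of the control, and 167, 169 and 161 TPM in lateral and 207, 218 and 199 TPM in primary root at recovery. The order of the roots was thus opposite in the 2 conditions, with no overlap in either (interaction 0.90, SE 0.11, adjusted p = 0.0527). SORBI_3002G202700 had a larger interaction of 1.41 (SE 0.22, adjusted p = 0.156), with 49.5 to 64.9 TPM in primary root at recovery. Among the largest interactions of each sign, SORBI_3002G358300 was at 3.22 (SE 1.11, adjusted p = 0.446) and SORBI_3008G182700 at -4.57 (SE 1.01, adjusted p = 0.277).

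Leaf levels were a readout that did not choose the DEGs. In the 3 leaf libraries of the same control group, 249 of the 629 DEGs higher in primary root (39.6%) had a mean of at least 1 TPM, against 123 of the 194 higher in lateral root (63.4%) and 78.5% of the tested genes that were not called. Their median leaf level was 0.392, 3.01 and 8.34 TPM. The median level over both roots was similar for the DEGs of either direction, at 9.12 and 9.20 TPM, and was 15.4 TPM for genes not called. Among the DEGs higher in lateral root, 51 (26.3%) had a leaf mean above both roots, beside 10.5% of the DEGs higher in primary root and 20.2% of genes not called. These shares are given as descriptions, without a test.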

How the data were processed

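Poly(A) RNA of leaf, lateral root and primary root was sequenced in 63 libraries. Per the labels and the methods, the authors used Trimmomatic for trimming, STAR for alignment to BTx623 v3.1.1 and StringTie for quantification; the deposited TPM values sum to 1000000 in each library, without scaling between libraries, and no count was used, so DESeq2, the authors' test, was not run. The labels and the methods differ in the number of plants pooled, the sequencer, the nutrient solution and the time of the last recovery sample.

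All 63 columns were mapped by their names. Genes that reached 1 TPM in 3 or more libraries were tested with limma (version 3.58.1, R version 4.3.3, trended eBayes, pseudocount 1), with a separate fit of 6 libraries at each time and 12 for the interaction. The fit was tested on simulated data. Precision rests on the spread of 3 libraries, and an exact permutation test of 3 against 3 cannot go below p = 0.1.

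The members, gene lists and tests were chosen with earlier results of these data known. Named genes are the 15 largest DEGs of each direction without overlap (some of them), network DEGs, all nitrogen transport and assimilation genes, the 5 highest genes per root, the largest interactions and the leaf markers. Lists built from words in gene descriptions, including all root cell type markers, could not be used, because 0 gene IDs matched the reference table; sequences are not shown for that reason. Alternatives were another pseudocount, filter, scaling, trend, threshold or set of libraries, a replicate block, and each library left out; leaving out both libraries with high leaf markers was added after seeing the data.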

Additional observations from a re-analysis of the deposited data

How the results depend on the processing

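The 823 DEGs numbered 829 with a pseudocount of 0.1, 568 at a mean TPM of at least 5, 874 with median-of-ratios scaling, 790 with quantile normalization, 699 without a trend and 958 in a fit of 12 libraries. They numbered 436 in a fit of all 42 root libraries (46 higher in lateral root) and 884 in that fit without lateral root 0 h replicate 1 (139 higher in lateral root). They numbered 411 with no filter, 3226 with the adjusted p alone and 2 at the stricter thresholds (adjusted p 0.01, log2 fold change 2), both higher in lateral root; the cause was not tested. Single libraries left out gave 80 to 1239, and leaving out lateral root replicate 1 and primary root replicate 2 together gave 1390. The replicate block gave 937; deviations of same-numbered lateral and primary libraries correlated at 0.09, 0.01 and 0.06, all under 0.1, and lateral root replicate 2 correlated best with another number, so the numbers were not used to pair; whether they mark the same plants is not known. The 10 network DEGs numbered 4 with no filter and 4 in the fit of 42 libraries (10 without lateral root 0 h replicate 1), 0 to 14 with single libraries left out and 24 without both libraries together. Interaction calls were 1 with a pseudocount of 0.1, 0 to 11 with single libraries left out (11 without lateral root control replicate 3, 3 without primary root control replicate 1, 1 without primary root control replicate 2) and 0 with the replicate block.

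In the fit of all 42 root libraries, 5075 genes were called at 0 h (0 in its own fit), 795 at 0.5 h (1386), 562 at 24 h (1122), 543 at 24.5 h (125) and 261 for 48 h recovery (1017). The 0 h fit that lacked replicate 1 of lateral root called 1233, and the 24.5 h fit that lacked replicate 3 of primary root called 412. No named DEG changed direction under any alternative run. Depth, which TPM do not record, limits what can be said of genes near 1 TPM.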

Other observations

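Some genes were listed at 0 in 1 or 2 libraries of a root and at high levels in the others. SORBI_3001G053100 had 0, 0 and 154 TPM in lateral root and 149, 158 and 184 TPM in primary root, and over the 42 root libraries it was at 0 in 9 and between 103 and 192 TPM in the others. SORBI_3004G161650 had 0, 0 and 32.9 TPM in lateral and 41.4, 43.8 and 51.7 TPM in primary root, and SORBI_3004G292400 had 0, 0 and 38 TPM in lateral and 28.1, 50.9 and 75.4 TPM in primary root. In all, 38 genes combined a 0 and a level of at least 10 TPM within a root, 30 of them were tested and 0 were DEGs in limma; the adjusted p of the 3 genes above was 0.0872, 0.0675 and 0.0787. A library was at 0 while both others of its root had at least 10 TPM for 5 genes in lateral root replicate 1, 6 in lateral root replicate 2 and 4 in primary root replicate 2, and for 0 genes in the other 3 libraries. An exact 0 in such a table can be a failed estimate.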
